A study of Mus musculus with 22 samples.

Results

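The Cdx family was followed across gastruloids, balls of cultured mouse embryonic stem cells that elongate and form tissues of the embryonic trunk. Its members, Cdx1, Cdx2 and Cdx4, were taken by gene symbol from the deposited gene lists, where they are 3 of 32285 genes, and all 3 were found. In GRCm38 (mm10) with the GENCODE M21 annotation, Cdx1 (ENSMUSG00000024619) lies on the minus strand of chromosome 18 at positions 61018862 to 61036199. Cdx2 (ENSMUSG00000029646) lies on the minus strand of chromosome 5 at 147300805 to 147307270, and Cdx4 (ENSMUSG00000031326) on the plus strand of chromosome X at 103321398 to 103330592. Each has 3 exons in its annotated transcript.

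The gastruloids came from wild-type E14Tg2A cells, a single feeder-independent mouse line, with 300 cells seeded per well, 48 h of aggregation and then a pulse of 3 µM CHIR99021, a GSK3 inhibitor that activates Wnt signalling. All groups share this genotype and this treatment, and they differ in age and in experiment. In MULTI-seq experiments each gastruloid's cells carry a lipid-anchored barcode of their own, so the gastruloid was the replicate. With enough cells, MULTI-seq 1 gave 24 gastruloids, all of day 5, and MULTI-seq 2 gave 11 of day 4 and 12 of day 4.5. From MULTI-seq 3 there were 24 at day 3, and at days 3.5, 4, 4.5 and 5 there were 16 at every age. In MULTI-seq 3, day 3 had its own lanes, days 3.5 and 4 shared lanes, and days 4.5 and 5 shared others. The labels give these sets of lanes different experiment codes and use the word pool only in MULTI-seq 2. Each set is called a pool below. Nothing in the labels says that the gastruloids of a day came from separate cultures, so p-values measure the spread between gastruloids. The labels name no extra-embryonic tissue, and gastruloids are known to lack one.

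Cdx genes encode homeodomain transcription factors related to Drosophila caudal. In the mouse embryo they are active in the primitive streak and tail bud, downstream of Wnt, FGF and retinoic acid signals, and they activate trunk Hox genes. Embryos that lose Cdx function stop elongating behind the anterior trunk. Cdx2 also acts in the trophectoderm, which forms the placenta, and in the gut, where it sets intestinal identity. Neuromesodermal progenitors (NMPs in the authors' cell type names) are tail bud cells with both T and Sox2 that give rise to spinal cord and to presomitic mesoderm (PSM), the tissue from which somites form.

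The 18 lanes used held 64703013 to 307883815 UMIs (unique molecular identifiers, 1 per captured transcript) each, and the median final cell of a lane had 8287 to 38443. A gastruloid's summed cells gave between 1293296 and 57333371 UMIs. Mitochondrial UMIs made up 1.94% to 2.26% of a cell in the lanes of MULTI-seq 3 and 4.85% to 5.48% in the others, and their part in differences between experiments was not tested. The 153 pairs of lanes shared 0 to 15 cell barcodes, at most 0.410% of the smaller lane. Levels below are in CPM, a gene's UMIs per 1000000 UMIs of the summed cells. Capture of transcripts can differ between genes and was not measured, so the 3 members are not ranked against each other. Between lanes of a pool on the same day, Cdx2 differed by at most 1.17-fold and Cdx4 by up to 2.24-fold.

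The RefSeq promoter table for GRCm38.p6 matched 2 of the 3 members, Cdx2 and Cdx4, and their windows are shown because both members had their highest mean in NMPs of MULTI-seq 3. The sequences are the bases upstream of the RefSeq start that lie outside the annotated gene, 5′ to 3′ on the gene's strand, 229 bases at chr5:147307271-147307499 for Cdx2 and 250 bases at chrX:103321148-103321397 for Cdx4. Capitals mark the octamer ATGCAAAT, the letters known to be bound by POU factors such as Oct4.
Cdx2: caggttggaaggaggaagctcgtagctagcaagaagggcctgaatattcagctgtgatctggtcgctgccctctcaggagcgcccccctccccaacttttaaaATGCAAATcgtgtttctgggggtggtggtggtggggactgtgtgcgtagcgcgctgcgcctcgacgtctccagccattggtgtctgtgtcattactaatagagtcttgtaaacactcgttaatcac
Cdx4: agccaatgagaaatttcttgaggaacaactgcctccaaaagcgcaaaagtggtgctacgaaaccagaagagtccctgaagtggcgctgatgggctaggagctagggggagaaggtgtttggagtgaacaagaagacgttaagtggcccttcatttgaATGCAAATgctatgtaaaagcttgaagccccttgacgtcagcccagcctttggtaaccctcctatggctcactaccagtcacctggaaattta

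Both windows hold the octamer once, with its first base 147 bases before the RefSeq start of Cdx2 and 93 before that of Cdx4. The motif was picked after the sequences were read, and on both strands it occurs in 526 of 32851 promoter windows of 250 bases (1.60%), so the shared match is a description. Other letters searched were the Tcf and Lef forms CTTTGAT (3.21% of windows) and CTTTGAA (4.46%) and the Cdx form TTTATG (10.8%). Neither window holds any of these 3.

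In whole gastruloids of MULTI-seq 3 the means of the 3 members followed different courses over time. Cdx1 had its highest mean at day 3.5 and was lower at each later age. Cdx2 was also highest at day 3.5, lowest at day 4 and intermediate afterwards. Cdx4 was scarce in this experiment, with means of 0.421 to 2.22 CPM.

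At day 3 of MULTI-seq 3, Cdx2 stood at 109 ± 28.6 CPM (SD, n = 24), with a lowest, median and highest gastruloid of 59.1, 104 and 198. At day 3.5 it was 250 ± 95.3 (n = 16; 93.3, 292 and 361), and at day 4 it was 90.2 ± 86.2 (n = 16; 28.3, 53.1 and 332). The spread at day 4 was almost as large as the mean, and a few gastruloids kept levels like those of day 3.5. At day 4.5 the level was 142 ± 48.6 (n = 16; 55.5, 155 and 205) and at day 5 it was 112 ± 31.9 (n = 16; 66.3, 113 and 192). All neighbouring ages overlapped.

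Cdx1 measured 14.1 ± 2.77 CPM at day 3 (7.88, 14.2 and 19.2), 24.5 ± 12.9 at day 3.5 (2.66, 23.7 and 53.0) and 4.69 ± 3.27 at day 4 (0.667, 3.69 and 11.3). It was 1.79 ± 1.45 at day 4.5 (0, 1.97 and 5.19) and 0.682 ± 0.519 at day 5 (0.0917, 0.602 and 1.95). The highest day 5 gastruloid was below the median of day 4.5. Cdx4 measured 0.421 ± 0.338 CPM at day 3 (0, 0.310 and 1.18), 2.08 ± 1.16 at day 3.5 (0.140, 2.47 and 4.18), 0.840 ± 1.06 at day 4 (0.0267, 0.328 and 4.20), 2.22 ± 2.55 at day 4.5 (0, 1.61 and 8.29) and 1.56 ± 1.29 at day 5 (0, 1.13 and 4.31). Gastruloids with no Cdx4 UMI occurred at days 3, 4.5 and 5, and day 4.5 also held the highest one.

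**Figure D1:**
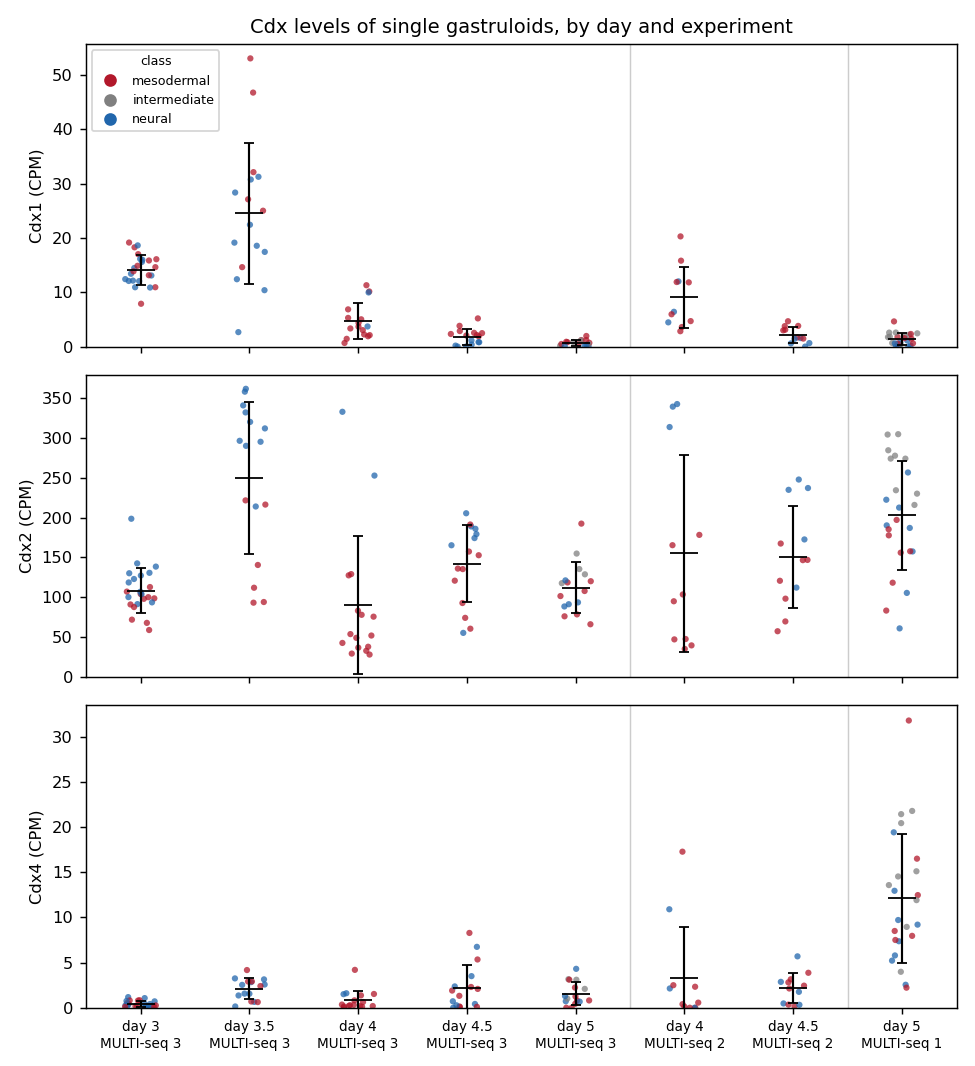
Whole-gastruloid levels of Cdx1, Cdx2 and Cdx4 in CPM (y axis) by day and experiment (x axis), 1 point per gastruloid coloured by its class, with the mean as a horizontal line and the SD as the error bar. Cdx2 at day 4 of MULTI-seq 3 spans 28.3 to 332 CPM, and Cdx1 at day 5 lies between 0.0917 and 1.95 CPM.

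The question put to days that shared a pool was whether a member's level changed with age. Between days 3.5 and 4 of MULTI-seq 3 all 3 members fell, against 60.4% of all genes tested that changed in either direction by edgeR's quasi-likelihood test (adjusted p under 0.05). Cdx1 fell by 2.44 on the log2 scale (SE 0.34, adjusted p = 4.0e-07) and was below the day 3.5 median in 16 of 16 gastruloids. Cdx2 fell by 1.49 (SE 0.32, adjusted p = 0.000181; 15 of 16) and Cdx4 by 1.42 (SE 0.47, adjusted p = 0.00969; 15 of 16). In a sum over a gastruloid, fewer cells of a type and less RNA per cell cannot be told apart, and the levels within types are given below. Restricted to gastruloids of the mesodermal class on both days, a comparison added after the data were seen, the 3 falls were 2.98, 1.32 and 1.77.

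Between days 4.5 and 5 of MULTI-seq 3, where 13.5% of genes changed, Cdx1 fell by 1.46 (SE 0.44, adjusted p = 0.0233; 16 of 16 gastruloids below the earlier median). Cdx2 differed by -0.37 (adjusted p = 0.154; 95% interval -0.70 to -0.03) and Cdx4 by -0.55 (adjusted p = 0.547), and neither passed.

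In MULTI-seq 2, Cdx1 was 9.07 ± 5.67 CPM at day 4 (n = 11; 2.83, 6.41 and 20.3) and 2.15 ± 1.48 at day 4.5 (n = 12; 0, 1.63 and 4.67). All day 4.5 gastruloids were below the median of day 4. The fall of Cdx1 was 1.93 (SE 0.37, adjusted p = 0.00193), where 7.36% of genes changed. Cdx2 measured 155 ± 123 CPM (35.4, 104 and 342) and 151 ± 64.0 (57.6, 147 and 248), a log2 difference of -0.03 with a 95% interval of -0.77 to 0.71 (adjusted p = 0.990). Its sign changed under some alternatives, where it was 0.80 with at least 100 cells, which left 6 and 11 gastruloids (adjusted p = 0.243), 0.37 in the mesodermal class (adjusted p = 0.578), 0.17 without lane 2 (adjusted p = 0.891) and 0.063 without lane 3 (adjusted p = 0.972). Cdx4 measured 3.30 ± 5.62 (0, 0.566 and 17.3) and 2.17 ± 1.68 (0.147, 2.29 and 5.69), a difference of -0.53 (adjusted p = 0.721).

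The other steps of MULTI-seq 3 compared days in separate pools, labelled with different experiment codes, where pool and day cannot be told apart. From day 3 to 3.5, where 74.8% of genes changed, Cdx1 rose by 0.63 (adjusted p = 0.00219) and Cdx2 by 1.03 (adjusted p = 2.9e-08). Cdx4 did not pass the filter on low counts, and without the filter it was higher by 2.11 (adjusted p = 1.2e-07). Values without the filter, here and below, come from another fit over more genes and are a description. From day 4 to 4.5, where 66.1% changed, Cdx1 fell by 1.16 (adjusted p = 0.0145) while Cdx2 rose by 0.86 (adjusted p = 0.0169) and Cdx4 by 1.68 (adjusted p = 0.0131). Within the mesodermal class the Cdx1 difference was -0.44 (adjusted p = 0.352), whereas Cdx2 (1.21) and Cdx4 (1.99) kept their calls. Over the 5 day contrasts, 14 of 15 member values were tested, of which 4 rose, 6 fell and 4 did not pass.

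Whether the day 4 to 4.5 step differed between MULTI-seq 3 and MULTI-seq 2 was tested directly. 0 of 3 members passed (1 at an unadjusted p under 0.05, 0 by DESeq2), where 33.9% of genes did, with differences of 0.81 for Cdx1 (adjusted p = 0.329), 0.88 for Cdx2 (adjusted p = 0.184) and 2.22 for Cdx4 (adjusted p = 0.0640).

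Genes of the pathways upstream and downstream of Cdx were read from the same fits. Between days 3.5 and 4, 11 of 16 Wnt pathway genes fell and 1 rose, with a list median of -0.74 against 0.01 over all genes tested. The largest falls were in the ligand Wnt8a (1.94), in Notum, a secreted enzyme that inactivates Wnt proteins (1.88), and in T, the Brachyury transcription factor (1.46). Of 11 FGF pathway genes 4 fell and 0 rose, a smaller share than the 60.4% of all genes that changed, and the list median was -0.08. Those that fell included the transcription factor Etv4 (0.85), the phosphatase gene Dusp6 (0.72) and the ligand Fgf8 (0.66). Of the 8 retinoic acid genes 7 were tested, 4 rose and 1 fell, led by the binding protein gene Crabp1 (2.20), Aldh1a2, which makes retinoic acid (1.36), and Rdh10, which makes its precursor (1.12).

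Hox genes, which pattern the body axis, were split by group number. Between days 3.5 and 4, 5 of 12 anterior Hox genes rose and 1 fell, and of 14 tested trunk genes 1 rose and 3 fell, Hoxb9 by 1.08, Hoxb8 by 1.03 and Hoxb7 by 1.02. The list medians were 0.18 and -0.20 against 0.01 over all genes, and the shares that changed were below the 60.4% of all genes. Within types fewer trunk genes passed the filter on low counts. A gene low at day 3.5 can pass it through day 4 alone, so the tested sets are not alike. The medians of the tested trunk genes had the other sign there, and this difference was not tested. In Caudal Epiblast 6 of 12 tested trunk genes rose and 0 fell (median 0.39; 21.2% of all genes changed), and in Early Posterior PSM 3 of 5 tested rose and 0 fell (median 0.57; 38.3%). Between days 4 and 4.5 of MULTI-seq 3, 13 of 14 tested trunk genes rose and 0 fell, where 66.1% of all genes changed and 32.4% rose. The list median was 1.37 against -0.02 over all genes, and Hoxa9 (4.06), Hoxa7 (3.32) and Hoxc9 (3.26) rose most. Within pool B of MULTI-seq 2 the same step gave 3 of 14 trunk genes up and 0 down, where 7.36% of all genes changed and 3.03% rose. They were again Hoxa9 (3.48), Hoxa7 (2.22) and Hoxc9 (1.93), and the list median was 0.57 against -0.0018 over all genes. In each experiment 14 of the 15 trunk genes were tested for this step. A gene low at day 4 can pass the filter through day 4.5 alone, which favours rises in the tested set. Between days 4.5 and 5, where 13.5% of all genes changed, 3 of 15 trunk genes rose, and 1 of 16 Wnt genes (Wnt8a, by 1.51) and 2 of 10 tested FGF genes (Fgf4, by 1.53, and Fgf3, by 0.91) fell. Of the 8 retinoic acid genes 2 fell, Aldh1a2 by 1.14 and Crabp1 by 0.99. These are small counts, and that of the Wnt genes is a lower share than over all genes. Between days 4 and 4.5 the Wnt genes gave 0 up and 5 down of 16 within pool B of MULTI-seq 2 (median -0.58). Over all genes 7.36% changed there and 4.33% fell. T (1.29), the transcription factor gene Sp5 (1.13) and Nkd1 (0.62) were among the Wnt genes that fell. In MULTI-seq 3, where these days were in separate pools, 1 of 16 rose and 6 fell (median -0.43). Over all genes 66.1% changed in that step and 33.8% fell, so the Wnt count is below the first share and near the second. Between days 4.5 and 5 of MULTI-seq 3, 2 of the 12 posterior Hox genes passed the filter on low counts. They were Hoxc10 and Hoxa10, with log2 differences of 2.75 and 2.40. A gene can pass that filter through the age where it is high, so these values say nothing of the list.

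Cell types named by the authors are clusters of the same expression values, so levels by type are a description. The labels were checked on T and Sox2: of 1930 cells named NMPs in MULTI-seq 3, 1358 had UMIs of both genes, 462 of T alone, 82 of Sox2 alone and 28 of neither. Of the 2635 Caudal Epiblast cells 1653 also had UMIs of both, so the check does not tell NMPs from that type. These counts take all final cells of a type, doublet calls included, and the part of doublets in them was not tested. None of the NMP markers T, Sox2 and Nkx1-2 had its highest mean in NMPs. T was highest in Notochord (807 CPM), Sox2 in Late Spinal Cord (246) and Nkx1-2 in Caudal Neurectoderm (203). Of the other cell types known for Cdx2, 7 trophoblast markers summed to 2.00 CPM in NMPs and 9.02 in Caudal Epiblast, mostly Tfap2c (6.73). The 5 hindgut and intestine markers summed to 1.07 and 0.491 CPM in those types and to 71.2 in Mature Endoderm, where Foxa1 led with 38.8.

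Over the 22 types of MULTI-seq 3 with at least 3 gastruloids, the 3 members had different rankings. Means by type pool the ages at which a type was found, and types differ in those ages, so age and type are mixed in these orders. For Cdx1 the highest means were in Caudal Epiblast (28.9 ± 17.6 CPM, n = 38), Primitive Streak (24.6 ± 15.9, n = 45), Early Posterior PSM (19.0 ± 13.7, n = 42), Notochord (16.8 ± 12.8, n = 15) and NMPs (12.3 ± 12.8, n = 44). It was 1.59 ± 2.15 in Early Spinal Cord and 0.00240 in Late Spinal Cord, with 1 UMI in 2801 cells. No neighbours in the order of Cdx1 differed by more than the larger SD. At day 4 alone the order of these progenitors was the other way, with 25.6 ± 12.4 CPM in NMPs (n = 14) and 18.7 ± 9.27 in Caudal Epiblast (n = 15), again less apart than the SD.

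Cdx2 was highest in NMPs (419 ± 46.4 CPM, n = 44), followed by Caudal Neurectoderm (374 ± 58.1, n = 22), Caudal Epiblast (368 ± 39.6, n = 38) and Early Spinal Cord (353 ± 62.0, n = 46). These 4 followed each other by less than their SD. After a gap of 114 CPM came Early Neurectoderm (239 ± 54.6, n = 31) and Notochord (232 ± 61.3, n = 15). A second gap of 86.1 CPM led to Primitive Streak (146 ± 85.0), Late Posterior PSM (120 ± 25.5) and Late Spinal Cord (103 ± 79.3). These were the only 2 of 21 neighbouring pairs that differed by more than the larger SD. Mature Endoderm stood at 58.5 ± 37.0 CPM and Early Posterior PSM at 42.6 ± 22.5, and the lowest level was 0.831 ± 1.01 in Head Mesoderm.

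Cdx4 also ranked highest in NMPs (7.41 ± 10.6 CPM), ahead of Early Spinal Cord (3.48 ± 4.77), Caudal Epiblast (3.42 ± 4.29) and Late Posterior PSM (1.85 ± 2.64). Its SD exceeded its mean in each of these types, and no neighbouring pair differed by more than the larger SD. In the gastruloids of 7 of 22 types no Cdx4 UMI was found, Mature Somites with 5010 cells among them. The number of types above 50% of the highest type's mean was 4 for Cdx1, 6 for Cdx2 and 1 for Cdx4, and 10, 10 and 13 types were under 5% of it.

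**Figure D2:**
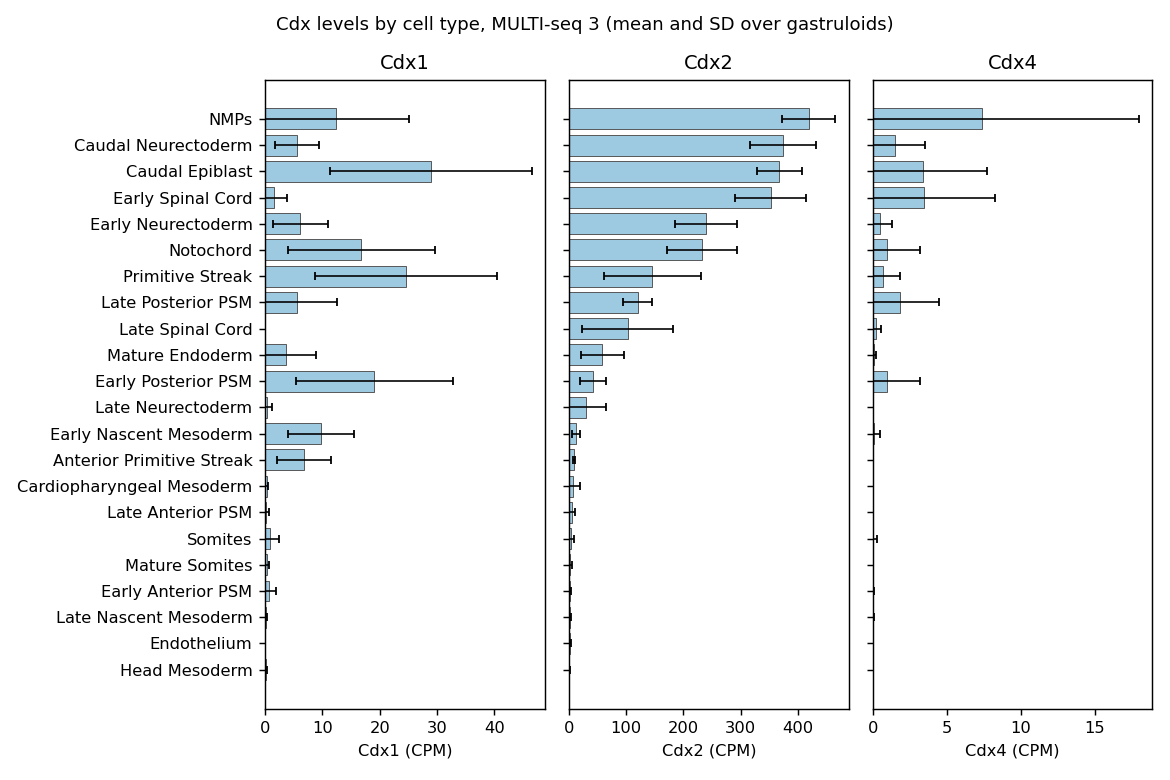
Mean level in CPM (x axis) of each member in the 22 cell types of MULTI-seq 3 (y axis), with the SD over gastruloids as error bars. Cdx2 is highest in NMPs (419 CPM), Cdx1 in Caudal Epiblast (28.9 CPM) and Cdx4 in NMPs (7.41 CPM).

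The other experiments gave similar orders for Cdx2. In MULTI-seq 1, day 5 only, NMPs had 508 ± 46.7 CPM (n = 22), Early Spinal Cord 423 ± 46.6 (n = 23), Late Spinal Cord 163 ± 97.8 (n = 15), Late Posterior PSM 162 ± 25.8 (n = 22) and Mature Endoderm 139 ± 103 (n = 6). In MULTI-seq 2, NMPs, Caudal Neurectoderm, Caudal Epiblast and Early Spinal Cord again took the first 4 places, between 387 and 356 CPM. Cdx4 in MULTI-seq 1 was 44.3 ± 30.5 CPM in NMPs, 24.3 ± 13.7 in Early Spinal Cord and 6.69 ± 6.31 in Late Posterior PSM. Its order in MULTI-seq 2 was another, with 11.2 ± 17.3 CPM in Early Spinal Cord (n = 15), 11.1 ± 13.7 in Caudal Epiblast (n = 6) and 9.36 ± 7.70 in NMPs (n = 10), all closer than their SD. Cdx1 had its highest mean of MULTI-seq 1 in Somites (5.75 ± 10.3 CPM, n = 13), followed by NMPs (4.78 ± 4.39, n = 22), and of MULTI-seq 2 in Caudal Epiblast (27.0 ± 12.3, n = 6).

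The types that held the family's UMIs changed with age. At day 3, Primitive Streak held 68.0% of Cdx1 and 46.6% of Cdx2 UMIs with 56.8% of cells. At day 3.5, Caudal Neurectoderm and Caudal Epiblast held 28.9% and 28.3% of Cdx2 UMIs with 15.5% and 16.6% of cells. At day 4, Caudal Epiblast and NMPs held 23.9% and 17.9% of them with 4.91% and 3.30% of cells. From day 4.5 on, Early Spinal Cord was the main source of Cdx2, with 52.6% of its UMIs at day 4.5 and 47.8% at day 5, from 20.6% and 16.9% of cells. NMPs held 34.4% of the Cdx1 UMIs of day 5 with 7.67% of cells.

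Levels by age were then compared within types. In Caudal Epiblast, the posterior layer from which NMPs arise, Cdx1 went from 45.0 ± 15.2 CPM at day 3.5 (n = 15; 14.3, 44.4 and 78.9) to 18.7 ± 9.27 at day 4 (n = 15; 2.44, 15.1 and 39.8). All 15 later gastruloids were below the earlier median, although the groups overlapped. Cdx1 fell by 1.19 (SE 0.17, adjusted p = 1.8e-06), where 21.2% of genes tested in this type changed. Cdx2 in the same cells measured 384 ± 27.4 and 377 ± 29.7 CPM, a difference of -0.01 with a 95% interval of -0.08 to 0.06 (adjusted p = 0.999). The class mix of these gastruloids changed between the days, and within each class the Cdx2 mean was higher at day 4. It was 358 ± 18.6 (n = 6) and then 369 ± 21.1 CPM (n = 13) in the mesodermal class, and 402 ± 15.8 (n = 9) and then 404 and 451 in the 2 gastruloids of the neural class. These differences within classes were not tested.

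In Early Posterior PSM both fell between days 3.5 and 4, where 38.3% of genes changed. Cdx1 measured 33.0 ± 8.09 CPM (n = 13; 15.2, 33.1 and 49.2) and then 6.95 ± 4.43 (n = 16; 2.94, 5.23 and 17.6). Cdx2 measured 55.7 ± 16.0 (38.9, 51.7 and 83.4) and then 22.6 ± 9.61 (10.9, 19.8 and 50.3). All 16 later gastruloids were below the earlier median for both genes, with overlap at the edges. The falls were 2.44 (SE 0.18, adjusted p = 1.1e-12) and 1.41 (SE 0.14, adjusted p = 3.6e-10). Cdx4, at 2.24 and 0.160 CPM, did not pass the filter, and without it the difference was -2.90 (adjusted p = 1.7e-05).

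Between days 4.5 and 5, Cdx2 did not pass in 5 of the 6 types where it was tested. It differed by -0.04 in NMPs (adjusted p = 0.689; 396 ± 30.9 CPM, n = 13, against 405 ± 39.0, n = 16), where 7.55% of genes changed, and by -0.16 in Early Spinal Cord (adjusted p = 0.109), where 12.4% did. The difference was 0.00097 in Late Posterior PSM (adjusted p = 0.998; 6.88% of genes), -0.04 in Late Spinal Cord (adjusted p = 0.953; 7.79%) and -0.47 in Mature Endoderm (adjusted p = 0.454; 1.63%). The 95% intervals were -0.13 to 0.05 in NMPs and -0.96 to 0.03 in Mature Endoderm. In NMPs and Late Spinal Cord the fitted difference, which uses TMM scaling, has the opposite sign to the difference of the CPM means.

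The exception was Mature Somites, where 14% of genes changed. Cdx2 measured 1.29 ± 1.27 CPM at day 4.5 (n = 13; 0, 1.07 and 3.77) and 4.41 ± 2.07 at day 5 (n = 16; 0.891, 4.19 and 8.59), with 15 of 16 later gastruloids above the earlier median. Cdx2 rose by 1.45 (SE 0.33, adjusted p = 0.00204). Both levels in Mature Somites are low. A gene low at day 4.5 can pass the filter on low counts through day 5 alone, so this rise is given as a description. Among types that should hold little Cdx2, Endothelium had 1.78 ± 1.07 CPM at day 5 (n = 6). Head Mesoderm had 0.497 ± 1.09 at that age (n = 7), and both means are below the 4.41 of Mature Somites. The part of free RNA in the rise in Mature Somites was not tested. In Somites, where Cdx2 did not pass the filter, it measured 1.76 ± 2.28 CPM (n = 10) and 8.41 ± 3.79 (n = 12), and without the filter the difference was 2.13 (adjusted p = 0.00133).

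Cdx1 was too low for the filter in each type tested between days 4.5 and 5, so its values here are a description. Without the filter its values were lower at day 5 in NMPs (-1.37, adjusted p = 0.0209), Late Posterior PSM (-1.51, adjusted p = 0.00956), Early Spinal Cord (-1.52, adjusted p = 0.0486) and Mature Endoderm (-3.25, adjusted p = 0.0041). In the other 4 types it did not pass, with 1.39 in Somites (adjusted p = 0.448), 0.66 in Mature Somites (adjusted p = 0.605), 0.75 in Late Spinal Cord (adjusted p = 0.716), where Cdx1 had 1 UMI over all ages, and -0.16 in Late Anterior PSM (adjusted p = 0.945). In NMPs the means were 25.6 ± 12.4 CPM at day 4 (n = 14), 8.49 ± 7.96 at day 4.5 and 3.07 ± 2.86 at day 5. In Late Posterior PSM of MULTI-seq 2, where 1.13% of genes changed between days 4 and 4.5, Cdx2 differed by 0.04 (adjusted p = 0.953), and Cdx1 without the filter by -1.44 (adjusted p = 0.00060). Over the within-type day contrasts 11 of 33 member values were tested, 1 rose, 3 fell and 7 did not pass. In the 6 contrasts where no member passed, 1 of 6 member values tested had an unadjusted p under 0.05, and DESeq2 called 0.

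**Figure D3:**
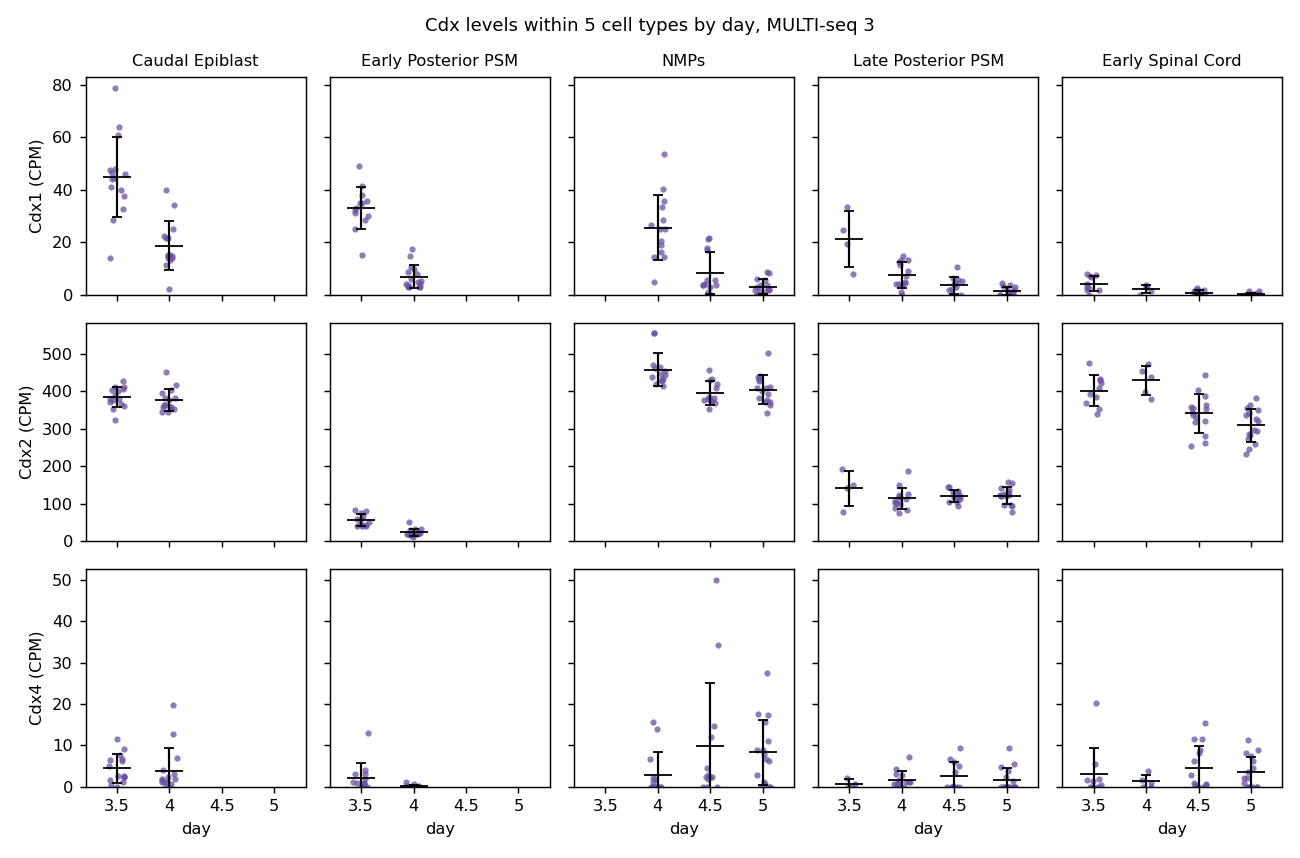
Levels of the members in CPM (y axis) by day (x axis) in 5 cell types of MULTI-seq 3, 1 point per gastruloid with mean and SD, leaving out days with fewer than 3 gastruloids. In NMPs Cdx1 has means of 25.6, 8.49 and 3.07 CPM at days 4, 4.5 and 5, and Cdx2 459, 396 and 405 CPM.

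Levels at ages that entered no test are a description. Cdx2 in Primitive Streak had means of 88.8 ± 14.7 CPM at day 3 (n = 24), 239 ± 58.0 at day 3.5 (n = 16) and 120 ± 102 at day 4 (n = 5), and Cdx1 had 17.0 ± 3.62, 42.2 ± 12.9 and 5.29 ± 3.55. Late Spinal Cord had Cdx2 at 258 ± 38.0 CPM at day 3.5 (n = 3), at 177 and 189 in the 2 gastruloids of day 4, at 61.1 ± 13.2 at day 4.5 (n = 7) and at 61.7 ± 26.5 at day 5 (n = 8).

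The authors sorted gastruloids into mesodermal, intermediate and neural classes by their makeup, so whole-gastruloid levels by class are a description. At day 3.5 Cdx2 was 312 ± 42.8 CPM in neural gastruloids (n = 10; 214, 316 and 361) and 146 ± 58.8 in mesodermal ones (n = 6; 93.3, 126 and 221). The lowest neural gastruloid lay below the 2 highest mesodermal ones, and the other 9 neural ones lay above all of them. At day 4 the 2 neural gastruloids had 253 and 332 CPM, and the 14 mesodermal ones 61.3 ± 33.5 (28.3, 50.7 and 129), without overlap. At day 5 the classes were closer, with 98.7 ± 15.2 in neural (n = 4; 88.6, 91.4, 93.7 and 121) and 108 ± 39.7 in mesodermal gastruloids (n = 8; 66.3, 105 and 192). The 4 intermediate gastruloids of that day had 118, 129, 135 and 155, a mean of 134 ± 15.6. In MULTI-seq 1 the mean was also highest in the intermediate class, 266 ± 32.3 (n = 9; 216, 274 and 304), against 174 ± 64.1 in the neural (n = 8) and 154 ± 40.1 in the mesodermal class (n = 7). Cdx1 at day 4.5 of MULTI-seq 3 was 0.474 ± 0.450 CPM in the 7 neural and 2.81 ± 1.06 in the 9 mesodermal gastruloids, where the highest neural value, 1.14, was below the lowest mesodermal one, 1.90. At the same age in MULTI-seq 2 the classes overlapped, with 0.848 ± 0.652 CPM in 5 neural gastruloids, the highest 1.57, and 3.07 ± 1.16 in 7 mesodermal ones, the lowest 1.47.

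**Figure D4:**
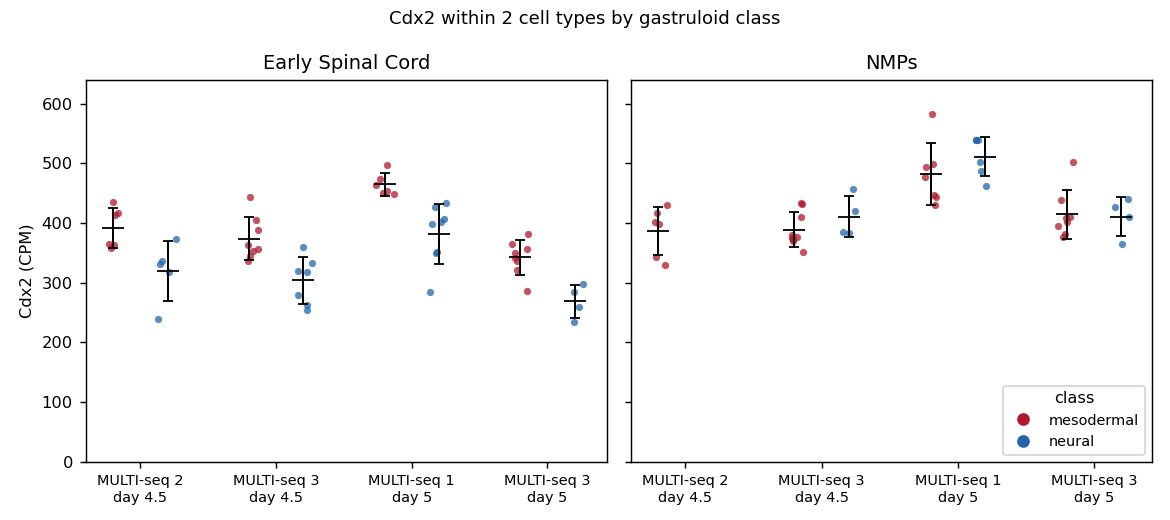
Cdx2 level in CPM (y axis) within Early Spinal Cord and NMPs, by experiment and day (x axis) and gastruloid class (colour), 1 point per gastruloid with the mean as a line and the SD as the error bar, leaving out groups of fewer than 4. Cdx2 in Early Spinal Cord has lower means in neural than in mesodermal gastruloids in each of the 4 comparisons, such as 304 against 374 CPM at day 4.5 of MULTI-seq 3.

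Levels within a type are another measure than makeup, and the classes were compared there. Where classes are said not to overlap, above and below, the share of all genes that do the same was not counted. Such separation is a description. In Early Spinal Cord, the young neural tube cells, Cdx2 was lower in neural gastruloids in all 4 comparisons, and 2 of these passed. At day 4.5 of MULTI-seq 3 it measured 374 ± 36.1 CPM in mesodermal gastruloids (n = 8; 336, 360 and 443) and 304 ± 39.1 in neural ones (n = 7; 254, 319 and 360). The groups overlapped, and Cdx2 was lower in neural gastruloids by a log2 difference of -0.29 (SE 0.07, adjusted p = 0.0123), where 1.67% of genes differed. At day 5 of MULTI-seq 3 the mesodermal level was 342 ± 29.3 (n = 8; 286, 346 and 382) and the 4 neural gastruloids had 234, 284, 297 and 259. The difference was -0.30 (SE 0.07, adjusted p = 0.0292), where 0.738% of genes differed, and the call was lost without neural replicate 1 (-0.24, adjusted p = 0.121), 3 (-0.33, adjusted p = 0.0507) or 4 (-0.29, adjusted p = 0.144).

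The comparisons of Early Spinal Cord in the other experiments had the same sign. At day 5 of MULTI-seq 1, 465 ± 18.7 CPM (n = 6; 449, 459 and 498) stood against 381 ± 49.9 (n = 8; 284, 399 and 434). The groups did not overlap, and the difference was -0.23 (adjusted p = 0.0555), where 1.63% of genes passed. At day 4.5 of MULTI-seq 2, 392 ± 33.4 CPM (n = 6; 359, 390 and 435) stood against 336, 332, 317, 374 and 239 in the 5 neural gastruloids, a difference of -0.24 (adjusted p = 0.0869), where 0.828% of genes passed. Without neural replicate 4 it was -0.31 (adjusted p = 0.0180).

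Cdx4 in Early Spinal Cord of MULTI-seq 1 was lower in neural gastruloids, 22.1 ± 6.86 CPM (11.4, 19.9 and 32.6) against 37.2 ± 18.3 (20.7, 33.7 and 71.2), with overlap. The difference was -0.74 (SE 0.20, adjusted p = 0.0361), and DESeq2 gave an adjusted p of 0.209. In Early Spinal Cord of day 5 in MULTI-seq 3 the Cdx4 difference was 1.22 (adjusted p = 0.440), and without the filter 1.24 (adjusted p = 0.0161). At day 4.5, where Cdx4 did not pass the filter, it measured 3.45 ± 5.74 CPM in neural gastruloids of MULTI-seq 3 (n = 7) against 5.36 ± 5.19 in mesodermal ones (n = 8). For MULTI-seq 2 of that age the values were 3.24 ± 3.36 (n = 5) against 13.8 ± 16.0 (n = 6). The sign at day 5 of MULTI-seq 3 thus differed from the other 3 comparisons, and this difference was not tested.

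In Early Posterior PSM of day 3.5, where 2.37% of genes differed, Cdx2 was higher in neural gastruloids, at 64.0 ± 15.9 CPM (n = 7; 41.0, 58.9 and 83.4) against 45.9 ± 9.82 (n = 6; 38.9, 42.4 and 65.5). The groups overlapped and the difference was 0.53 (SE 0.14, adjusted p = 0.0433), but DESeq2 gave 0.0528 and a minimum of 20 cells gave 0.245 as its adjusted p.

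The remaining class contrasts called no member. In NMPs, Cdx2 differed by 0.11 at day 5 of MULTI-seq 1 (adjusted p = 0.760; 0.0672% of genes passed), by 0.09 at day 4.5 of MULTI-seq 3 (adjusted p = 0.855; 0% passed) and by 0.01 at day 5 of MULTI-seq 3 (adjusted p = 1.0; 0% passed). The 95% interval of the last was -0.13 to 0.15. In those last 2 contrasts 468 and 464 genes had an unadjusted p under 0.05, and DESeq2 called 1 and 0. Cdx4 in NMPs differed by -0.82 in MULTI-seq 1 (adjusted p = 0.571; 0.0269 without the filter).

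Cdx1 in NMPs had a lower mean in the neural class in these 3 comparisons, and 0 of them passed. At day 5 of MULTI-seq 1 it measured 7.35 ± 5.78 CPM in mesodermal (n = 7) and 1.46 ± 2.28 in neural gastruloids (n = 6), a difference of -1.38 without the filter (adjusted p = 0.728). At day 4.5 of MULTI-seq 3 it measured 11.0 ± 8.33 (n = 9) and 2.85 ± 2.72 (n = 4), a difference of -1.61 (adjusted p = 0.650). At day 5 of MULTI-seq 3 the 8 mesodermal gastruloids had 4.99 ± 2.69 CPM, the lowest 1.89, and the 4 neural ones 0.804 ± 0.946, the highest 1.83. These groups did not overlap, and the difference was -2.13 without the filter (adjusted p = 0.240). With the filter 0% of genes passed in this contrast.

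In Caudal Epiblast of day 3.5, where 2.82% of genes differed, the Cdx2 values of the 6 mesodermal gastruloids (358 ± 18.6 CPM; 325, 363 and 376) lay below all 9 neural ones (402 ± 15.8; 379, 404 and 429). The difference of 0.12 did not pass (adjusted p = 0.165). In Primitive Streak, Cdx2 differed by -0.02 at day 3 (adjusted p = 0.966; 1.24% of genes) and by 0.29 at day 3.5 (adjusted p = 0.256; 0.582%; 0.0211 without the filter). In Late Posterior PSM it differed by -0.10 at day 5 of MULTI-seq 1 (adjusted p = 0.788; 1.46%) and by -0.12 at day 5 of MULTI-seq 3 (adjusted p = 0.796; 0.134%). Over the 13 class contrasts 23 of 39 member values were tested, 1 was higher, 3 lower and 19 did not pass. In the 9 contrasts with no call, 6 of 16 values had an unadjusted p under 0.05 and DESeq2 called 0.

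Gastruloids of the same day were compared between experiments to see how far the levels repeat, and there experiment, culture and library cannot be told apart. At day 4.5, 0 of 3 members passed between MULTI-seq 3 and MULTI-seq 2 (0 at an unadjusted p under 0.05, 0 by DESeq2), where 42.5% of genes did, with differences of -0.30, -0.04 and -0.02 for Cdx1, Cdx2 and Cdx4. At day 4, where 46.1% of genes differed, Cdx1 was lower in MULTI-seq 3 by a difference of -1.11 (adjusted p = 0.0206) and Cdx4 by -2.24 (adjusted p = 0.0136), while Cdx2 differed by -0.93 (adjusted p = 0.0887). Below the median of MULTI-seq 2 were 12 of 16 gastruloids of MULTI-seq 3 for Cdx1. For Cdx4, 9 of 16 gastruloids of MULTI-seq 3 were below the median of MULTI-seq 2, with medians of 0.328 and 0.566 CPM, and 2 of the 11 gastruloids of MULTI-seq 2, at 17.3 and 10.9, stood above all of MULTI-seq 3. The part of these 2 in the Cdx4 call was not tested. With a minimum of 100 cells, which left 6 gastruloids of MULTI-seq 2, Cdx1 gave -1.04 (adjusted p = 0.106).

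At day 5 Cdx4 differed between MULTI-seq 3 and MULTI-seq 1, where 63.7% of genes differed. In whole gastruloids of MULTI-seq 1 it measured 12.1 ± 7.14 CPM (n = 24; 2.22, 10.8 and 31.8), against 1.56 ± 1.29 in MULTI-seq 3. All 16 gastruloids of MULTI-seq 3 were below the other median, and the groups overlapped between 2.22 and 4.31. Cdx4 was lower by a difference of -2.80 (SE 0.35, adjusted p = 3.0e-09). Cdx2, at 203 ± 68.1 CPM in MULTI-seq 1 (61.1, 205 and 304), was lower in MULTI-seq 3 by -0.64 (SE 0.15, adjusted p = 0.000321; 16 of 16). Cdx1, at 1.34 ± 1.13 (0, 1.29 and 4.63), did not pass the filter, and without it the difference was -0.83 (adjusted p = 0.0773). Over the 3 comparisons 8 of 9 values were tested and 4 were lower in MULTI-seq 3.

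The same was asked within types, a comparison added after the data were seen. In NMPs of day 5, where 53.6% of genes differed, Cdx4 measured 44.3 ± 30.5 CPM in MULTI-seq 1 (n = 22; 0, 45.5 and 106) and 8.30 ± 7.95 in MULTI-seq 3 (n = 16; 0, 7.32 and 27.5), a difference of -2.51 (SE 0.25, adjusted p = 7.0e-14). In Early Spinal Cord, where 59.8% differed, it measured 24.3 ± 13.7 (n = 23; 3.50, 20.7 and 71.2) and 3.47 ± 3.84 (n = 16; 0, 2.22 and 11.4), a difference of -2.35 (SE 0.27, adjusted p = 5.2e-11). All 16 gastruloids of MULTI-seq 3 were below the other median in both types, with overlapping groups. In Late Posterior PSM, where 53.5% differed, Cdx4 did not pass the filter, and without it the difference was -1.58 (adjusted p = 0.000916). Cdx1 passed the filter in none of these types. Without the filter it differed by -1.60 in Early Spinal Cord (adjusted p = 0.00123) and by -0.54 in NMPs (adjusted p = 0.264). In Late Posterior PSM its difference was 0.07 (adjusted p = 0.911).

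The Cdx2 differences within types were smaller. They were -0.17 in NMPs (508 ± 46.7 against 405 ± 39.0 CPM, adjusted p = 0.000162), -0.27 in Early Spinal Cord (423 ± 46.6 against 310 ± 44.3, adjusted p = 1.7e-06) and -0.24 in Late Posterior PSM (162 ± 25.8 against 121 ± 21.7, adjusted p = 0.00112). The fitted differences, which use TMM scaling, are closer to 0 than the ratios of these means. At day 4.5 the same 3 types called 0 of 3 Cdx2 values (1 at an unadjusted p under 0.05, 0 by DESeq2), with 0.01 in NMPs (adjusted p = 0.953; 23.1% of genes differed), -0.09 in Early Spinal Cord (adjusted p = 0.333; 40.8%) and -0.22 in Late Posterior PSM (adjusted p = 0.0708; 29.3%).

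**Figure D5:**
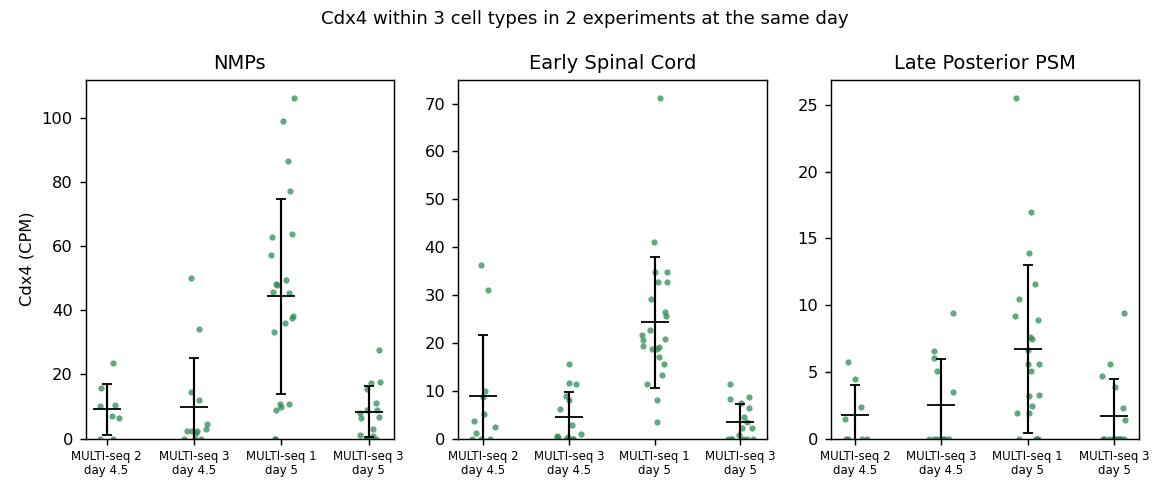
Cdx4 level in CPM (y axis) in NMPs, Early Spinal Cord and Late Posterior PSM by experiment and day (x axis), 1 point per gastruloid with mean and SD. At day 5 the NMP means are 44.3 CPM in MULTI-seq 1 and 8.30 CPM in MULTI-seq 3.

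Detection in single cells depends on depth, so shares are given at an equal number of UMIs and without thinning. All final cells of a type enter, doublet calls included, and the part of doublets in joint shares was not tested. After thinning each cell of MULTI-seq 3 to 5000 UMIs, 84.9% of the 1930 NMPs had a Cdx2 UMI, 5.32% a Cdx1 UMI and 2.37% a Cdx4 UMI. Without thinning, at a median of 29343.5 UMIs, the shares were 99.9%, 21.1% and 4.72%. In the 2635 Caudal Epiblast cells the thinned shares were 82.7%, 14.1% and 1.74%, and the unthinned ones 99.96%, 52.1% and 7.13% at a median of 33534 UMIs. Endothelium, which should lack the family, had a Cdx2 UMI in 1.35% of its 159 cells after thinning and 8.18% without it, at a median of 31706 UMIs, and Cardiopharyngeal Mesoderm in 1.19% and 7.48%. Cdx4 UMIs were found in 0 cells of both, which allows up to 1.89% and 0.218% of cells by counting error. This limits the cells with a UMI, not the cells that express the gene. Cdx1 UMIs were found in 0.629% and 1.38% of these cells without thinning. The thinned share with both Cdx1 and Cdx2 in NMPs, 4.62%, was close to the product of the single shares, 4.51%, as was that of Cdx2 and Cdx4, 2.00% against 2.01%. With a Cdx2 UMI in 84.9% of NMPs, a joint share can lie only little above the product. The closeness therefore says little of joint expression.

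The genes most like each member over the 22 type profiles of MULTI-seq 3 were found by Pearson's r of log2(CPM + 1) among 9783 genes. All 9783 had a mean of at least 10 CPM in some type, which Cdx4 did not reach (7.41). These r values are descriptions, since the profiles share gastruloids and libraries and the types were named from the same values. For Cdx1 they were T (0.948), the Wnt ligand gene Wnt6 (0.948), the ephrin receptor gene Epha1 (0.936), Castor1 (0.933) and B3gnt7 (0.911). For Cdx2 they were Notum (0.966), Ptpn14 (0.931), Lhpp (0.929), the transcription factor gene Sp8 (0.928) and Fam222a (0.918). For Cdx4 they were the FGF ligand gene Fgf17 (0.917), Gm53 (0.894), Stra6l (0.885), Smim3 (0.860) and the retinoic acid receptor gene Rarg (0.853). Between members r was 0.785 for Cdx2 and Cdx4, 0.677 for Cdx1 and Cdx2 and 0.594 for Cdx1 and Cdx4. Many other genes were closer to each member. For Cdx1, Cdx2 had rank 231 and Cdx4 rank 446. For Cdx2, Cdx4 had rank 71 and Cdx1 rank 272, and for Cdx4, Cdx2 had rank 20 and Cdx1 rank 161.

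Across whole gastruloids of 1 day and experiment, 24 relations between members were computed, and 8 passed by Pearson's r after Benjamini-Hochberg adjustment, all of them positive. By Spearman's rho 5 of the 24 passed after the same adjustment, all among these 8. With log2(CPM + 5) in place of log2(CPM + 1), 4 of the 8 passed by r. Those lost were Cdx2 and Cdx4 at day 4 of MULTI-seq 3 and Cdx1 and Cdx4 at day 4 of MULTI-seq 2, day 3.5 of MULTI-seq 3 and day 5 of MULTI-seq 1. Cdx2 and Cdx4 had a positive r at day 5, with r = 0.701 in MULTI-seq 1 (rho 0.617, n = 24, permutation p = 0.000120, adjusted 0.00288) and r = 0.720 in MULTI-seq 3 (rho 0.781, n = 16, permutation p = 0.00156, adjusted 0.0161). Without the 2 gastruloids farthest from the median these r were 0.464 and 0.607. At day 4 of MULTI-seq 3 all 3 pairs passed by r, with r = 0.681 for Cdx1 and Cdx2, 0.629 for Cdx2 and Cdx4 and 0.704 for Cdx1 and Cdx4, and with r of 0.672, 0.578 and 0.671 without 2 gastruloids. By rho the pair of Cdx2 and Cdx4 did not pass there (0.494, permutation p adjusted to 0.162), while Cdx1 with Cdx2 (0.735, adjusted 0.0130) and Cdx1 with Cdx4 (0.653, adjusted 0.0357) did. The other 3 that passed were of Cdx1 and Cdx4, with r = 0.711 at day 4 of MULTI-seq 2, 0.645 at day 3.5 of MULTI-seq 3 and 0.500 at day 5 of MULTI-seq 1. The second of these was 0.375 without 2 gastruloids. Only the first of them passed by rho (0.798, permutation p adjusted to 0.0293), and those at day 3.5 of MULTI-seq 3 (0.456, adjusted 0.192) and day 5 of MULTI-seq 1 (0.442, adjusted 0.107) did not. At day 5 of MULTI-seq 3, Cdx1 and Cdx4 had r = -0.317 (rho -0.166, n = 16), which did not pass. Gastruloids of a day differ in makeup, and its part in these relations was not tested.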

How the data were processed

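The deposited values are UMI counts per gene and cell; the authors made them with Cell Ranger 6.0.0 on mm10 and used Seurat, per the submitters' processing notes. Cell type, gastruloid and class names, like the doublet calls, come from the authors' deposited cell table. MULTI-seq 1 carried 0 doublet calls. Of 77674 final cells, 53730 carried 1 gastruloid barcode. Counts were summed per gastruloid (at least 30 cells, 135 of 136 gastruloids) and per gastruloid and type (at least 10 cells), with lanes of a pool joined as technical splits. In Python 3.11.15 these sums were divided by total UMIs. Groups of at least 6 gastruloids per day, or 4 per class, were tested with edgeR 4.0.16 (quasi-likelihood, TMM, filterByExpr, R 4.3.3) across all genes, with Benjamini-Hochberg adjusted p under 0.05. DESeq2 1.42.0, RLE scaling, no filter, higher cell minimums and omitted lanes or replicates were alternatives. The fit was tested on simulated data. Relations used log2(CPM + 1) and 100000 permutations. Thinned shares are exact expectations at 5000 UMIs. Named genes were the 3 called genes per list with the largest change and the 5 likest per member. The members and lists were chosen with earlier results of these data known. Comparisons within the mesodermal class, and between experiments within types, were added after the data were seen. The 70 columns of per-sample values not matched to a sample were not used, and days 3 and 3.5 of MULTI-seq 2 were not analysed here.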

Additional observations from a re-analysis of the deposited data

Results flagged for a closer look

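In each class of 4 to 10 gastruloids on 1 day, each member was searched for a gastruloid far from the others. These were 39 searches, 3 in each of 13 classes, and 7 of them found one, in 5 of the classes. Chance gives about 1 in 20 for a single search, but the searches in a class share gastruloids and are not independent. The highest mesodermal gastruloid of day 4 in MULTI-seq 2 had 17.3 CPM of Cdx4, against a median of 0.394 in the others. In MULTI-seq 3 the lowest neural gastruloid had 214 CPM of Cdx2 at day 3.5 (median of the others 319.8) and 55.5 at day 4.5 (183). The highest mesodermal gastruloid of day 5 had 192 CPM of Cdx2 (102). Among the 4 neural gastruloids of day 5, the highest values were 0.246 CPM of Cdx1 (0.0920), 121 of Cdx2 (91.4) and 4.31 of Cdx4 (0.717).

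Lanes whose cells carry no gastruloid call entered no comparison, and all 3 members were detected there, above the limit that a count of 0 allows. The 95% Poisson intervals cover counting error only. In the 10X experiment the day 3 lane had 33.1 CPM of Cdx1 (31.5 to 34.6), 122 of Cdx2 (119 to 125) and 0.660 of Cdx4 (0.463 to 0.914). Its day 4 lane had 11.7 CPM of Cdx1, 184 of Cdx2 and 4.60 of Cdx4. In pool C of MULTI-seq 2, which mixes days 4 and 4.5, lane 1 had 6.73 CPM of Cdx1, 158 of Cdx2 and 2.50 of Cdx4. Lane 2 of that pool had 6.47, 173 and 1.88 CPM of the same genes.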

How the results depend on the processing

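Of 414 alternative values of the members' log2 changes, 387 kept their direction and side of the threshold, 8 fell short of it, 4 newly passed and 15 changed sign. Of the 27 called changes, 0 changed sign and 22 passed under every alternative run. The 15 sign changes were in changes that had not passed. For Cdx2 in Caudal Epiblast between days 3.5 and 4 they were 0.0038 without lane A and 0.00077 without lane B. In Late Posterior PSM they were -0.030 with at least 20 cells and -0.26 without lane 2 in MULTI-seq 2, and -0.00071 by DESeq2, -0.0026 with no filter and -0.083 without lane A between days 4.5 and 5. Late Spinal Cord gave 0.046 by DESeq2. Whole MULTI-seq 2 gastruloids gave, for Cdx2, 0.80 with at least 100 cells, 0.17 without lane 2, 0.063 without lane 3 and 0.37 in the mesodermal class. Cdx2 in NMPs by class at day 5 gave -0.020 without neural replicate 1 and -0.019 without 3, in a range up to 0.075 (without 4), which kept the sign. Cdx4 at day 4.5 between experiments gave 0.066 by DESeq2, and r of Cdx1 and Cdx4 at day 4.5 of MULTI-seq 3 was -0.0025 with log2(CPM + 5). The cause was not tested.

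Day contrasts within types called 4 member values, and 11 with no filter, which tests more genes. Class contrasts called 4, against 2 by DESeq2 and 7 with no filter. With no filter the fit itself changes, and class contrasts gained calls for values that had also been tested with the filter. The share of NMPs with a Cdx2 UMI was 68.8% at 3000 UMIs and 99.9% unthinned. With log2(CPM + 5), 4 relations passed instead of 8. Of 250 alternative levels by type, 1 moved by more than its SD. No paired analysis was possible because no label ties a gastruloid's number on one day or in one class to the same number in another, and lanes are technical splits of a pool. Most values of Cdx1 and Cdx4 within types did not pass the filter on low counts, and the part of depth in this was not tested.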
